A study of Mus musculus with 45 samples.

Results

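The Hoxb cluster of the mouse holds 10 homeobox genes, Hoxb1 to Hoxb9 and Hoxb13, which are followed here through 78 h of organoid growth with and without all-trans retinoic acid (RA). The 10 genes were found by symbol among the 54532 genes of the count table, and all 10 were present. Organoids were grown in Matrigel from embryonic stem cells of the mouse line R1, in N2B27, a serum-free medium for neural differentiation, and RNA of whole organoids was sequenced. Libraries were made at day 2, before treatment, and later from untreated organoids and from organoids given 250 nM RA at day 2. The later collections were at 8 h, at 18 h and then at 12 h intervals until 78 h, all counted from day 2, with 3 biological replicates for each of the 15 conditions and 45 libraries in all. R1 is a single line, all groups shared it and the culture, and no group carried an engineered allele. In the labels' own protocol text the dose is in µM and some hours differ, and the dose and hours used here are those of the sample titles and of the study's methods.

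Hox genes encode homeodomain transcription factors that give cells of the neural tube and trunk their position along the head-to-tail axis. In a cluster the genes lie in the order in which they act, so that low-numbered (3′) genes are expressed early and reach far forward into the hindbrain, and high-numbered (5′) genes come on later and stay in the spinal cord. RA, made by the mesoderm beside the neural tube, binds nuclear receptors (RAR) on response elements, some of them near the 3′ genes, and is a textbook inducer of Hox genes in stem cells. Hoxb1 marks the fourth hindbrain segment, Hoxb2 is a target of Egr2 in the segments around it, Hoxb3 and Hoxb4 are genes of the posterior hindbrain, Hoxb5 to Hoxb9 are genes of the cervical and thoracic cord, and Hoxb13 is a gene of the tail end of the axis.

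On the GRCm38 genome the 10 genes lay on the plus strand of chromosome 11, from the start of Hoxb13 at 96194316 to the end of Hoxb1 at 96368256, a span of 173.9 kb. Hoxb9 to Hoxb1 took up 96.8 kb of it, and a gap of 74.0 kb separated Hoxb13 from Hoxb9. Along the chromosome the order was Hoxb13, Hoxb9, Hoxb8, Hoxb7, Hoxb6, Hoxb5, Hoxb4, Hoxb3, Hoxb2 and Hoxb1, so that Hoxb1 was the 3′ end. The antisense gene Hoxb3os overlapped Hoxb2 and Hoxb3 on the other strand. It shared 27.3% of the exon bases of Hoxb2 and 52.9% of those of Hoxb3, and 76.2% of its own exon bases were shared. The strand setting of the counting is not given in the sources used here, so reads of Hoxb3os and of its sense partners cannot be told apart, and Hoxb2 and Hoxb3 are uncertain to that extent. Hoxb5 shared 3.6% of its exon bases with the antisense gene Hoxb5os, and the other 7 members shared none.

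Sequence before the start was at hand for 3 of the members, which followed different courses: Hoxb1 fell after 18 h, Hoxb4 stayed high and Hoxb8 was among the members that gained most between 8 h and 18 h. The 250 bases before each start, from RefSeq on GRCm38.p6 and read 5′ to 3′ on the plus strand, are printed with matches to the motifs searched in capitals. Hoxb1 is at chr11:96365508-96365757, Hoxb4 at chr11:96318017-96318266 and Hoxb8 at chr11:96281655-96281904.
Hoxb1: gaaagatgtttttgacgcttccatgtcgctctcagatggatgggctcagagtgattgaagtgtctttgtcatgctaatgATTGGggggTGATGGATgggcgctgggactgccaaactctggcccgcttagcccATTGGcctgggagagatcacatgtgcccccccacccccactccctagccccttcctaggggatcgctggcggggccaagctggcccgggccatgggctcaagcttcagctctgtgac
Hoxb4: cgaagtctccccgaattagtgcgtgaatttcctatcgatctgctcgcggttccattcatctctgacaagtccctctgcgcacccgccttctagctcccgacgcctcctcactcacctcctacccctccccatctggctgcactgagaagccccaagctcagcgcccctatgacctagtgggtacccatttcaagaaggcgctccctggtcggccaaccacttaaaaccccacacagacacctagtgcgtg
Hoxb8: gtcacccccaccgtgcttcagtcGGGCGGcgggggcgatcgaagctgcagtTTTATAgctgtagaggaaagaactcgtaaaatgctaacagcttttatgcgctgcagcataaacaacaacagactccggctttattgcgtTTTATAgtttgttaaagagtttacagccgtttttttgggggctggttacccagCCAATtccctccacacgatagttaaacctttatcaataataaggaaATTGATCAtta
Both strands of these 250 bases and of the next 50 were searched for 6 motifs. They were TGATNNAT, a pattern that Pbx and Hox proteins bind together, the CCAAT box, the TATAAA box, the Sp1 pattern GGGCGG, and direct repeats of the RAR half-site with a spacing of 5 or of 2 bases. Counting the start as base 0, Hoxb1 held TGATNNAT from -162 to -155 and CCAAT on the minus strand from -171 to -167 and from -117 to -113. Hoxb8 held TGATNNAT on the minus strand from -11 to -4, CCAAT from -57 to -53, TATAAA on the minus strand from -199 to -194 and from -110 to -105, and GGGCGG from -227 to -222. Hoxb4 held none of the 6 in these letters. Among 32851 RefSeq promoters of the same length, 8.85% held TGATNNAT, 37.4% CCAAT, 13.6% TATAAA and 35.7% GGGCGG, while 0.39% held the RAR repeat with a spacing of 5 and 0.53% that with a spacing of 2. None of the matches overlapped another, and a match is a description of these letters and not a measured binding site.

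Library totals ran from 17298632 to 39688686 counts, so that 3 counts, taken as the smallest detectable amount, stood for 0.08 to 0.183 CPM (counts scaled to the size of the library), a limit that covers counting error only. No replicate pair agreed within sampling noise, the chi-square over genes being 1.97 per gene or more in 45 pairs. It was highest in pairs with RA 30 h replicate 2 (87.7 and 110, against 8.95 between replicates 1 and 3) and with RA 8 h replicate 3 (44.4 and 41.5). The sample titles carry library numbers but name no batch. By these numbers alone the libraries were split here into an earlier and a later series, a grouping that the labels do not state. All libraries at 66 h and 78 h, RA 30 h replicates 2 and 3, untreated 54 h replicate 3 and day 2 replicate 3 belonged to the later. Among the later numbers, those of day 2 replicate 3 and RA 30 h replicates 2 and 3 lie apart from the rest. The Y-linked genes Ddx3y, Kdm5d, Uty and Eif2s3y, averaged over the 4, were at 1.22 to 3.65 CPM in RA 8 h replicate 3, in RA 30 h replicates 1 and 3 and in the 3 untreated libraries at 30 h, against 22.9 to 89.5 CPM in all others. RA 8 h replicate 3 also stood apart in the Hoxb genes, with 28.7% to 82.6% of the mean of the other 2 replicates for Hoxb1 to Hoxb9, so log2 changes that involve RA 8 h or RA 30 h are also given, singly or as a range, without the library that stands apart. The neural progenitor markers Sox1, Sox2, Sox3, Pax6, Nes and Hes5 were all high enough to be tested from 18 h on, with a summed level of 846 to 975 CPM in untreated and 942 to 1080 CPM in RA-treated organoids at 78 h. The stem cell gene Pou5f1 fell in the means from 984 CPM at day 2 to 283 CPM in untreated and 94.7 CPM in RA-treated organoids at 78 h. It does not stand for its list. Of 6 stem cell and epiblast markers, 1 was raised and 2 lowered by RA at 78 h, with a median log2 change of 0.44. At that time the means of Nanog, Zfp42, Klf4 and Esrrb were higher with RA, and that of Fgf5 was lower.

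At day 2, all of the cluster was low. Hoxb1 stood at 1.99, 2.3 and 2.24 CPM and Hoxb9 at 1.33, 1.3 and 1.12 CPM in the 3 libraries, and the means of the other 8 members were between 0.05 CPM for Hoxb13 and 0.908 CPM for Hoxb2.

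**Figure D1:**
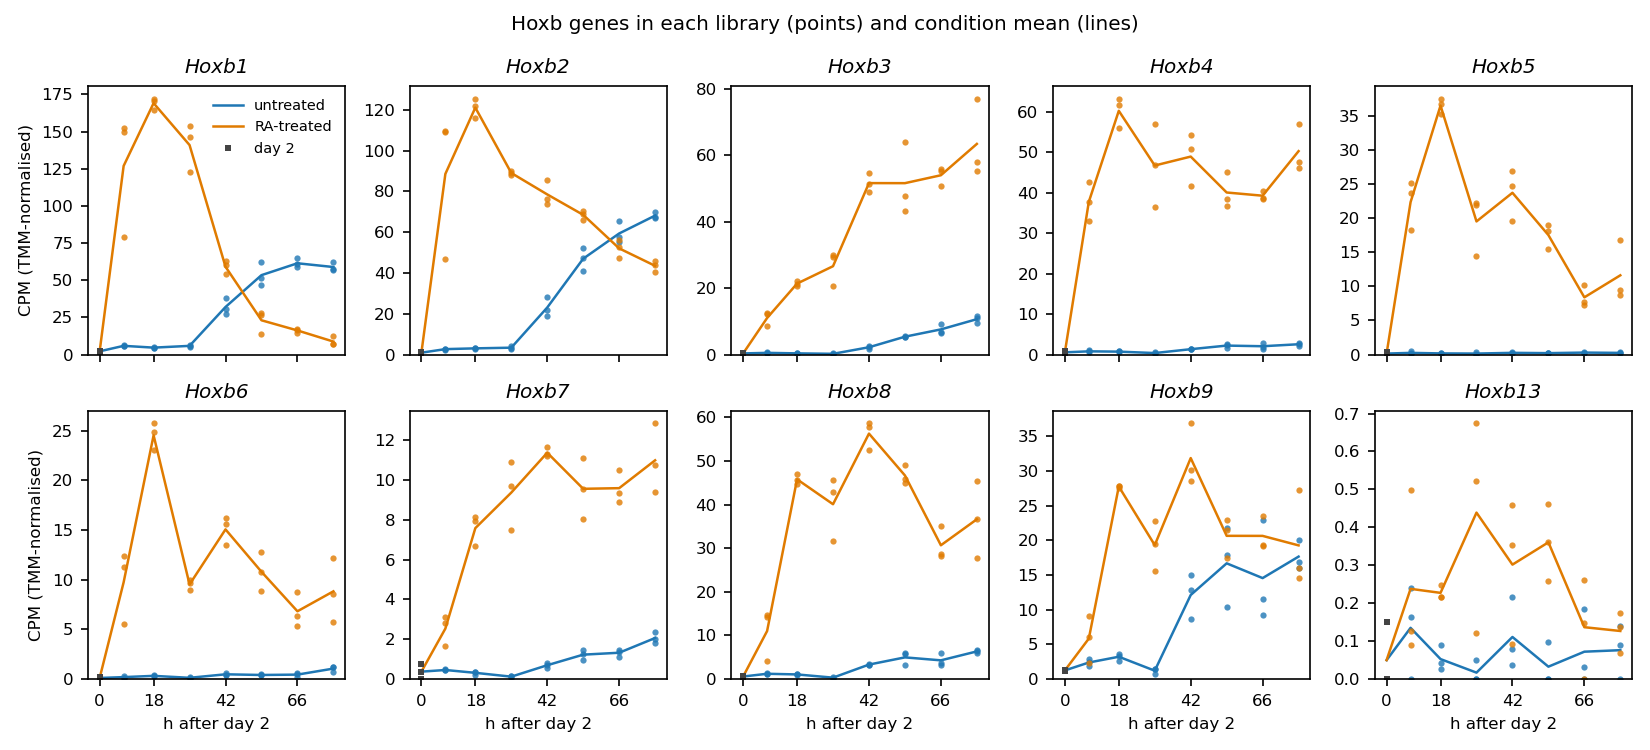
Level of each Hoxb gene, in CPM after TMM normalization, against hours after day 2, with points for single libraries and lines through the means of 3. RA-treated Hoxb1 climbed to 169 CPM at 18 h and then dropped below the untreated libraries by 54 h, whereas RA-treated Hoxb3 was highest at 78 h, and Hoxb13 stayed at or below 0.674 CPM.

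After 8 h, RA had raised 8 of the 9 members that could be tested, against 1.26% of all 15836 genes tested at that time, and lowered none, against 0.537%. A gene was called raised at an adjusted p under 0.01 (edgeR's quasi-likelihood test, Benjamini-Hochberg over all tested genes) and a log2 change above 1. Hoxb1 was at 150, 152 and 78.8 CPM with RA and at 5.6, 5.86 and 6.11 CPM without, a log2 change of 4.44 (SE 0.27, adjusted p = 0.000189 by edgeR). Hoxb4 was at 37.6, 42.6 and 33.1 CPM with RA and at 0.768, 0.596 and 1.01 CPM without, a log2 change of 5.57 (SE 0.19, adjusted p = 1.86e-05 by edgeR). Hoxb5, the member with the largest change, was at 25.2, 23.6 and 18.2 CPM with RA against 0.0549, 0.199 and 0.481 CPM, a log2 change of 6.44 (SE 0.39). In these untreated libraries 3 counts stood for 0.144 to 0.165 CPM, so the size of the Hoxb5 change rests on levels near the limit of detection. With each library left out in turn it ranged from 6.02 to 7.36. In these 3 genes the RA-treated and untreated libraries did not overlap. The share of all genes without such overlap was not determined.

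The 5′ members were weaker at 8 h. Hoxb7 was at 3.14, 2.81 and 1.66 CPM with RA and at 0.439, 0.497 and 0.433 CPM without, a log2 change of 2.47 (SE 0.33, adjusted p = 0.00487 by edgeR). Hoxb8 was at 14.1, 14.8 and 4.14 CPM with RA against 1.21, 1.14 and 1.3 CPM, a log2 change of 3.18 (SE 0.48, adjusted p = 0.0084 by edgeR). Hoxb9 was at 9.1, 6.12 and 2.32 CPM with RA and at 2.41, 2.83 and 1.92 CPM without, so that RA replicate 3 lay within the untreated range, and the log2 change of 1.30 (SE 0.45, adjusted p = 0.109 by edgeR) did not pass. Without RA 8 h replicate 3, the log2 change of Hoxb9 was 1.66 (adjusted p = 1.17e-05 by edgeR) and all 9 members were called. The changes of the other 8 without that library were 4.68 for Hoxb1, 5.35 for Hoxb2, 4.57 for Hoxb3, 5.64 for Hoxb4, 6.55 for Hoxb5, 5.82 for Hoxb6, 2.68 for Hoxb7 and 3.55 for Hoxb8. Hoxb13 was at 0.126, 0.0906 and 0.497 CPM with RA, or 2 to 9 counts, and was too low to be tested. The calls of Hoxb7 and Hoxb8 were lost when any of the other 5 libraries was left out, with adjusted p between 0.021 and 0.0645 by edgeR. Without untreated 8 h replicate 1 that of Hoxb6 was lost too (adjusted p = 0.0102 by edgeR), which left 5 raised members.

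At 18 h the RA libraries agreed closely and all 9 tested members were raised, against 8.17% of all genes tested, and none lowered, against 2.76%. Hoxb1 was at 165, 172 and 171 CPM with RA and at 4.56, 4.62 and 4.77 CPM without, a log2 change of 5.19 (SE 0.06, adjusted p = 3.13e-14 by edgeR). Hoxb5 was at 35.3, 37.5 and 36.7 CPM against 0.0902, 0.248 and 0.16 CPM, a log2 change of 7.74 (SE 0.15). It was again the largest in the cluster, and its size again rests on untreated levels near the limit of detection. Hoxb9 was at 27.9, 27.6 and 27.9 CPM against 3.38, 2.6 and 3.68 CPM, a log2 change of 3.10 (SE 0.10), the smallest of the 9. The other 6 members had log2 changes between 4.55 for Hoxb7 and 6.44 for Hoxb4. For Hoxb1 to Hoxb9 no RA library overlapped an untreated library at 18 h, and the share of all genes with such separation was not determined.

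Counted from day 2, the 9 members Hoxb1 to Hoxb9 rose in the RA-treated organoids within 8 h, against 4.27% of all genes tested in the fit of the 24 day 2 and RA libraries, and none fell, against 2.38%. The log2 rise was 7.33 (SE 0.40) for Hoxb5, 6.58 for Hoxb2, 6.31 for Hoxb6, 6.06 for Hoxb4, 5.85 for Hoxb1 and 5.00 for Hoxb3. It was smaller for the 3 members at the 5′ end, 4.22 for Hoxb8, 2.82 for Hoxb7 and 2.23 (SE 0.36) for Hoxb9. Without RA 8 h replicate 3 all 9 rises were still called and were between 2.58 for Hoxb9 and 7.45 for Hoxb5.

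The second step, from 8 h to 18 h, ran closely in the order of the cluster. Hoxb9 rose by a further 2.22 on the log2 scale (SE 0.29, adjusted p = 8.85e-06 by edgeR), Hoxb8 by 2.03, Hoxb7 by 1.55 and Hoxb6 by 1.32, and these 4 neighbours were called, against 4.7% of all genes (0.686% were called lower). The step was 0.70 for Hoxb5, 0.66 for Hoxb4, 0.94 for Hoxb3, 0.44 for Hoxb2 and 0.41 (SE 0.22, adjusted p = 0.192 by edgeR) for Hoxb1, none of which was called. As a description, Spearman's rho between the step and the place of the 9 genes in the cluster was 0.95, and 0.917 without RA 8 h replicate 3, when the step was 1.86 for Hoxb9 and 0.16 for Hoxb1 and the same 4 members were called. The 9 points share the same libraries and are not independent. In the fit of the 6 libraries of the step alone, only Hoxb7 was called.

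In levels, Hoxb1 had reached 75% of its 18 h mean by 8 h and Hoxb2 73.2%. The share was 51.5% for Hoxb3, 62.7% for Hoxb4 and 61.2% for Hoxb5. It was 39.7% for Hoxb6, 33.4% for Hoxb7, 24% for Hoxb8 and 21% for Hoxb9. From the other 2 replicates of 8 h, the shares were 89.2% for Hoxb1, 90.4% for Hoxb2, 31.6% for Hoxb8 and 27.4% for Hoxb9, so the 3′ end was closer to its 18 h level than the 5′ end with or without that library.

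**Figure D2:**
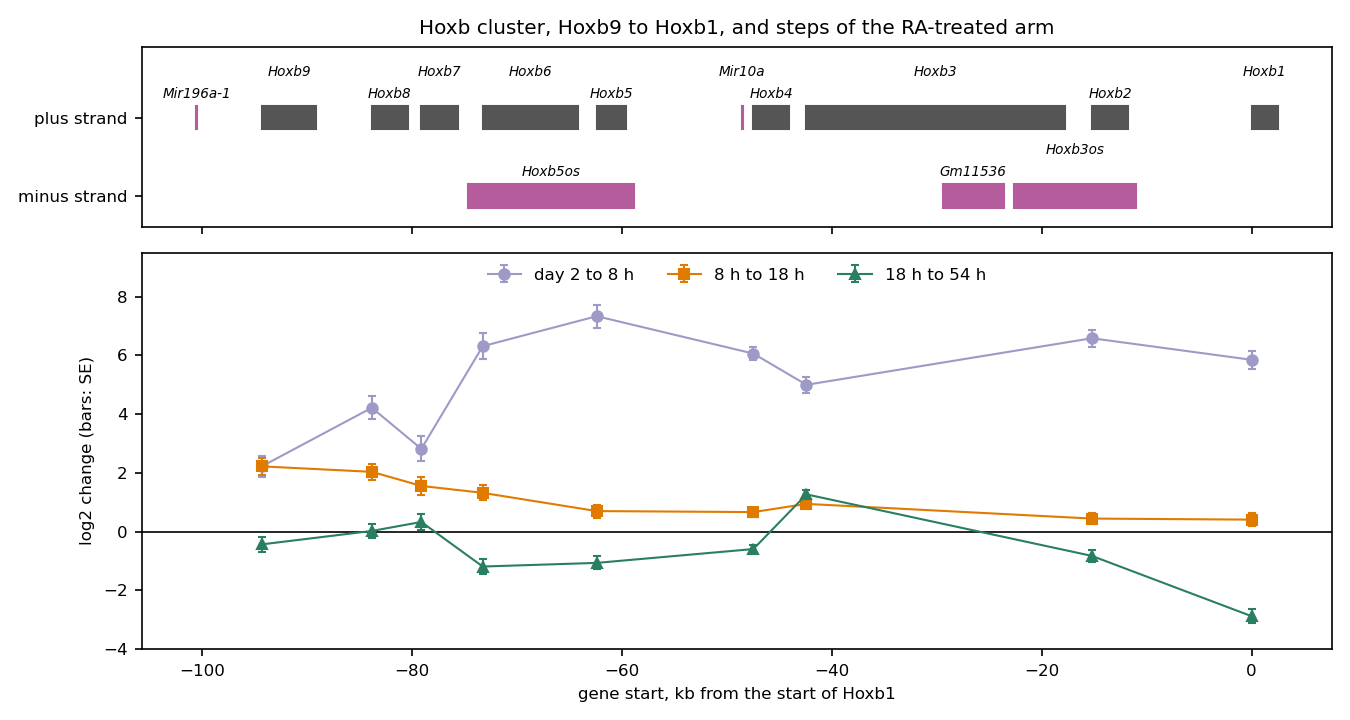
Upper panel, position and strand of the genes from Hoxb9 to Hoxb1 in kb from the start of Hoxb1; lower panel, log2 change of each member in RA-treated organoids over 3 steps, with bars of 1 standard error. The 8 h to 18 h step shrank from 2.22 at Hoxb9 to 0.41 at Hoxb1, while the 18 h to 54 h step was lowest at Hoxb1 (-2.88) and highest at its near neighbour Hoxb3 (1.27).

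At 30 h the 9 members were again raised, against 5.98% of all genes tested (2.48% were lowered), with log2 changes from 3.98 (SE 0.30) for Hoxb9 to 7.18 (SE 0.56) for Hoxb5. Hoxb8 had its largest RA effect here, 43, 31.6 and 45.6 CPM against 0.113, 0.305 and 0.562 CPM, a log2 change of 7.0 (SE 0.38). Its RA mean was highest at 42 h, at 56.3 CPM. In the untreated libraries of 30 h, 3 counts stood for 0.113 to 0.183 CPM. The untreated means of Hoxb3 to Hoxb8 were 0.122 to 0.369 CPM, so the sizes of their RA effects rest on levels near the limit of detection. The untreated means at 30 h were below those at 18 h for Hoxb3 to Hoxb9. The 3 untreated libraries and RA replicates 1 and 3 were also those with low Y-linked genes, and the part of that in the RA effect at 30 h was not tested. Nor was its part in the steps of the RA arm to and from 30 h. RA 30 h replicates 2 and 3 are of the later series, and the untreated libraries of 30 h are of the earlier. The RA libraries of 18 h and 42 h are also of the earlier. Series thus cannot be fully told apart from RA at 30 h or from time in these steps. In RA replicate 1, of the earlier series, Hoxb1 to Hoxb9 stood at 16.1 (Hoxb9) to 155 (Hoxb5) times the untreated mean. Among the RA libraries replicate 2, which stands apart over all genes, was the lowest in 8 of 9 members, with 123 CPM of Hoxb1 against 154 and 147 CPM, 36.5 CPM of Hoxb4 against 46.7 and 56.9 CPM and 14.4 CPM of Hoxb5 against 22.2 and 21.9 CPM. Without it all 9 members were again called, with log2 changes from 4.09 for Hoxb9 to 7.35 for Hoxb5. Between 18 h and 30 h in the RA arm, Hoxb6 fell from 23, 24.9 and 25.7 CPM to 9.95, 8.95 and 9.68 CPM, a log2 change of -1.37 (SE 0.25, adjusted p = 0.000305 by edgeR), the only member called, also without RA 30 h replicate 2 (-1.33), against 3.5% of all genes called lower and 2.67% called higher. That refit keeps only RA 30 h replicates 1 and 3, both low in Y-linked genes, so it cannot address that difference between the times. Hoxb5 had a log2 change of -0.91 and was called when RA 30 h replicate 1 was left out.

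After 30 h the members parted. Hoxb1 fell in each of the next steps, from 154, 123 and 147 CPM at 30 h to 54.4, 60.2 and 62.6 CPM at 42 h and 14, 28.3 and 26.9 CPM at 54 h. The log2 changes were -1.26 (SE 0.23, adjusted p = 0.000842 by edgeR), against 0.953% of all genes called lower, and -1.36 (SE 0.23, adjusted p = 0.00238 by edgeR), against 0.257%. No other member was called in these steps, in which 1.37% and 0.182% of all genes rose. Without RA 30 h replicate 2 the first of the changes was -1.34 and still called, from RA 30 h replicates 1 and 3, both low in Y-linked genes. The second of these calls was lost without RA 54 h replicate 1, without RA 42 h replicate 2 or without RA 42 h replicate 3, with an adjusted p of 0.0136 to 0.021 by edgeR. Hoxb1 was at 14.4, 16.7 and 17.5 CPM at 66 h and at 12.5, 6.86 and 6.86 CPM at 78 h, and neither of these last steps passed the test. From 54 h to 66 h, a step that coincides with the change of library series, no member was called, where 0.257% of all genes rose and 0.0321% fell, although Hoxb5, from 18.1, 15.4 and 19 CPM to 7.63, 10.2 and 7.29 CPM, came close at a log2 change of -1.07 (SE 0.23, adjusted p = 0.0137 by edgeR). From 66 h to 78 h no member was called either, where 0.0161% of all genes rose and 0 fell. DESeq2 called Hoxb5 from 54 h to 66 h, and an unadjusted p under 0.05 by edgeR was reached by 4 of 10 members in that step, against 15% of all genes, and by 2 of 10 in the last, against 6.53%.

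Over the 36 h from 18 h to 54 h, which compares only libraries of the earlier series, Hoxb1 fell by 2.88 on the log2 scale (SE 0.24, adjusted p = 4.15e-09 by edgeR), Hoxb6 by 1.19 and Hoxb5 by 1.07, 3 members against 11% of all genes called lower. Hoxb3 alone rose, from 20.7, 21.3 and 22.1 CPM to 63.8, 47.7 and 43.1 CPM, a log2 change of 1.27 (SE 0.16, adjusted p = 1.45e-06 by edgeR), against 7.77% of all genes called higher. Hoxb2 had a log2 change of -0.83, Hoxb4 of -0.59 and Hoxb9 of -0.43, while Hoxb8 was at 0.02 (SE 0.24) and Hoxb7 at 0.33 (SE 0.28). The order of these changes followed the place in the cluster only loosely, with Spearman's rho of 0.4 over the same 9 genes. Hoxb5 was no longer called without RA 54 h replicate 2, at a log2 change of -0.98.

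The time of the highest RA mean also differed along the cluster. It was 18 h for Hoxb1, Hoxb2, Hoxb4, Hoxb5 and Hoxb6, 42 h for Hoxb7, Hoxb8 and Hoxb9, and 78 h for Hoxb3. At 78 h Hoxb1 was left with 5.16% of its highest mean, Hoxb5 with 31.8%, Hoxb2 with 35.9% and Hoxb6 with 36%. Hoxb9 kept 60.5%, Hoxb8 65.1%, Hoxb4 83.5% and Hoxb7 96.6%. Several of these peaks were not clear of their neighbours: Hoxb7 was at 11.7, 11.2 and 11.3 CPM at 42 h and at 10.7, 9.38 and 12.9 CPM at 78 h, and Hoxb4 at 55.9, 63.2 and 61.6 CPM at 18 h and at 46.2, 47.6 and 57 CPM at 78 h. From 18 h to 78 h the log2 change was -4.30 (SE 0.26) for Hoxb1, -1.68 for Hoxb5, -1.51 for Hoxb2 and -1.50 for Hoxb6, the 4 members called lower against 10.7% of all genes. It was 1.54 (SE 0.16) for Hoxb3, the member called higher, against 9.97%. The 78 h libraries are all of the later series and the 18 h libraries of the earlier, so time and series cannot be told apart in that comparison, and the change from 18 h to 54 h has the same sign for these 5 genes.

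**Figure D3:**
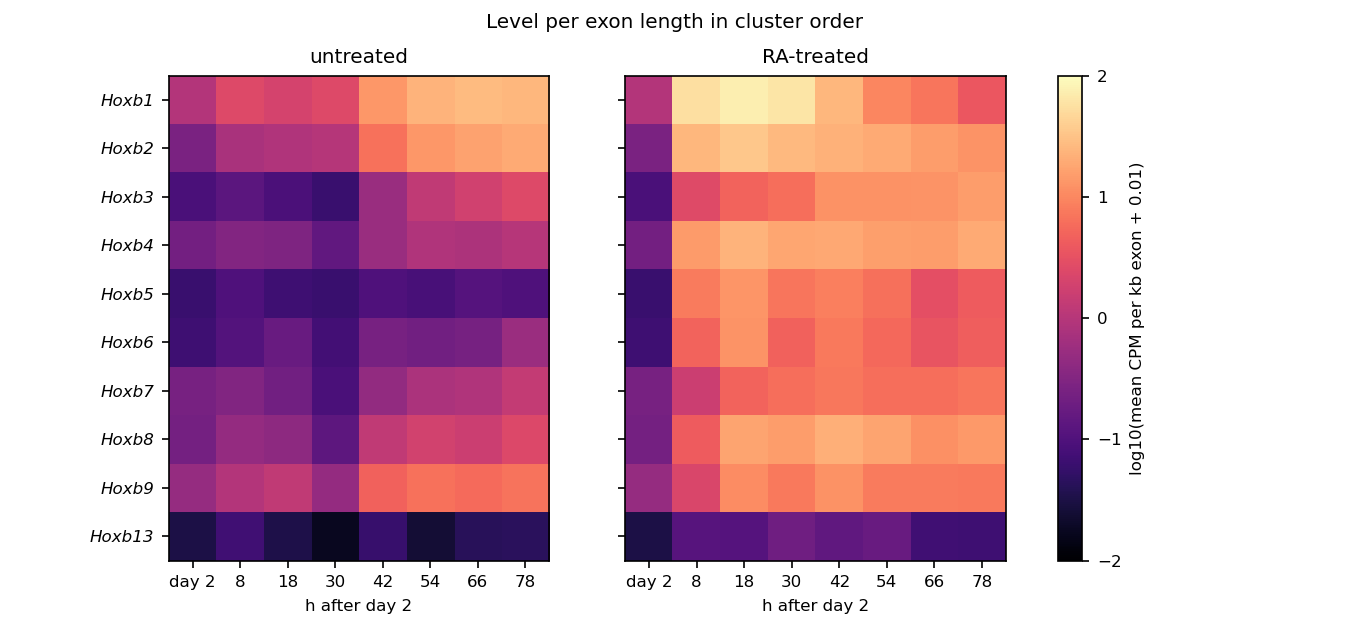
Mean level per kb of exon, as log10(CPM per kb + 0.01), of the Hoxb genes in cluster order (top, Hoxb1) at day 2 and each later time in the untreated and the RA-treated organoids. The RA panel is bright from Hoxb1 to Hoxb9, while the untreated panel at 78 h is brightest at Hoxb1, Hoxb2 and Hoxb9 and, of Hoxb1 to Hoxb9, darkest at Hoxb5.

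Without RA, the cluster also came on, but late and unevenly. From day 2 to 78 h, 8 members rose in the untreated organoids, against 19.4% of all genes tested, and none fell, against 13.7%, while Hoxb5 and Hoxb13 were too low to be tested. The means of Hoxb1 and Hoxb2 were already higher at 8 h (5.86 and 2.66 CPM) than at day 2 (2.18 and 0.908 CPM), with no overlap of the libraries, a step that was not tested. In fold, the means of both climbed most between 30 h and 42 h. The untreated libraries of 30 h were low in Y-linked genes, at 2.58 to 3.29 CPM against 25 to 34.4 CPM at 42 h. The part of that in the rise of Hoxb1, Hoxb2 and Hoxb9 after 30 h was not tested. Hoxb2 was at 4.14, 2.74 and 3.22 CPM at 30 h, 19, 28.3 and 21.9 CPM at 42 h and 67.1, 67.4 and 70 CPM at 78 h. Hoxb1 went from 5.94, 4.88 and 6.69 CPM at 30 h to 27.3, 38 and 30.7 CPM at 42 h and 57.1, 62.1 and 57.5 CPM at 78 h. Hoxb9 went from 1.5, 1.46 and 0.664 CPM to 8.6, 12.8 and 15 CPM and then 16, 16.9 and 20.1 CPM.

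From 18 h to 42 h, untreated Hoxb2 rose by 2.98 on the log2 scale (SE 0.16), Hoxb1 by 2.81, Hoxb3 by 2.64, Hoxb9 by 1.93 and Hoxb8 by 1.69, 5 members against 5.1% of all genes, while none fell, against 4.11%. Hoxb4 (0.94, adjusted p = 0.0222 by edgeR), Hoxb6 (0.56, adjusted p = 0.304) and Hoxb7 (1.14, adjusted p = 0.045) did not pass. The middle of the cluster stayed low to the end. At 78 h untreated Hoxb5 was at 0.324, 0.238 and 0.167 CPM, or 6 to 9 counts, and Hoxb4 at 2.84, 2.56 and 2.23 CPM.

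Levels can be compared between genes per kb of exon, taken over all annotated exons merged. The places of Hoxb3 and Hoxb2 in these orders are uncertain, as 52.9% and 27.3% of their exon bases are shared with Hoxb3os. In RA-treated organoids at 18 h the order was Hoxb1 at 72.9 ± 1.74 (SD, n = 3) CPM per kb, Hoxb2 at 34.7 ± 1.36, Hoxb4 at 23.5 ± 1.5, Hoxb8 at 17.4 ± 0.404, Hoxb5 at 13.1 ± 0.405, Hoxb6 at 12.5 ± 0.711, Hoxb9 at 10.8 ± 0.0664, Hoxb3 at 5.02 ± 0.163 and Hoxb7 at 4.91 ± 0.512. The spread of Hoxb5 overlapped that of Hoxb6, and that of Hoxb3 overlapped that of Hoxb7. In RA-treated organoids at 78 h the order was Hoxb4 at 19.6 ± 2.28 CPM per kb, Hoxb3 at 14.9 ± 2.78, Hoxb8 at 13.9 ± 3.39, Hoxb2 at 12.5 ± 0.767, Hoxb9 at 7.49 ± 2.72, Hoxb7 at 7.12 ± 1.13, Hoxb6 at 4.5 ± 1.66, Hoxb5 at 4.17 ± 1.61 and Hoxb1 at 3.76 ± 1.4. In that order the SDs of each neighbouring pair overlapped except those of Hoxb2 and Hoxb9, and Hoxb1 had gone from the highest mean to the lowest. In untreated organoids at 78 h Hoxb1 led at 25.4 ± 1.18 CPM per kb, followed by Hoxb2 at 19.5 ± 0.453, Hoxb9 at 6.86 ± 0.838, Hoxb3 at 2.5 ± 0.236, Hoxb8 at 2.41 ± 0.125, Hoxb7 at 1.34 ± 0.17, Hoxb4 at 0.991 ± 0.119, Hoxb6 at 0.538 ± 0.164 and Hoxb5 at 0.0872 ± 0.0281. Of these, Hoxb3 and Hoxb8 did not differ beyond their spread.

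The RA effect, RA-treated against untreated at the same hour, also changed with time. At 42 h 8 members were raised, against 7.49% of all genes tested, and none was lowered, against 4.96%. Hoxb1 was the member not called, with 54.4, 60.2 and 62.6 CPM against 27.3, 38 and 30.7 CPM and a log2 change of 0.88 (SE 0.11) below the threshold of 1. It was called without untreated 42 h replicate 2, at 1.00. At 54 h 6 members were raised, against 7.17% of all genes, and the same number at 66 h, against 7.06%, and at 78 h, against 7.66%. These 6 were Hoxb3 to Hoxb8 at each of the 3 times.

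The RA effect of Hoxb1 changed sign. At 54 h it was at 14, 28.3 and 26.9 CPM with RA and at 46.5, 51.2 and 62.6 CPM without, a log2 change of -1.23 (SE 0.20, adjusted p = 0.000456 by edgeR), the only member lowered, against 5.99% of all genes. At 66 h it was at 14.4, 16.7 and 17.5 CPM against 58.6, 60.7 and 64.9 CPM, a log2 change of -1.91 (SE 0.08, adjusted p = 5.38e-08 by edgeR), and 4.44% of all genes were lowered. At 78 h it was at 12.5, 6.86 and 6.86 CPM against 57.1, 62.1 and 57.5 CPM, a log2 change of -2.72 (SE 0.17, adjusted p = 3.06e-07 by edgeR), and 4.03% of all genes were lowered. All RA libraries were below all untreated libraries at these 3 times, and the share of all genes with such separation was not determined. Untreated 54 h replicate 3 is of the later series, and its part in the change at 54 h was not tested. Without RA 54 h replicate 1 the log2 change at 54 h was -0.99, short of the threshold.

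The RA effect of Hoxb2 shrank to below the threshold. Its log2 change was 1.75 (SE 0.12) at 42 h, 0.53 at 54 h, -0.18 at 66 h and -0.63 (SE 0.06, adjusted p = 7e-06 by edgeR) at 78 h. At 78 h the RA libraries, 40.7, 43.8 and 46 CPM, were all below the untreated libraries, 67.1, 67.4 and 70 CPM, but the change was smaller than the threshold. Hoxb9, at the other end, went from 1.38 (SE 0.17) at 42 h to 0.28 at 54 h, 0.52 at 66 h and 0.15 (SE 0.19, adjusted p = 0.566 by edgeR) at 78 h, where its RA libraries, 27.3, 14.5 and 16 CPM, spanned the untreated ones, 16, 16.9 and 20.1 CPM. At 66 h it was called without untreated 66 h replicate 2, at 1.02.

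The middle of the cluster kept a large RA effect to the end. At 78 h Hoxb5 was at 9.38, 8.67 and 16.8 CPM with RA and at 0.324, 0.238 and 0.167 CPM without, a log2 change of 5.60 (SE 0.36). Hoxb4 was at 46.2, 47.6 and 57 CPM against 2.84, 2.56 and 2.23 CPM, a log2 change of 4.33 (SE 0.12). The change was 3.08 for Hoxb6, 2.59 for Hoxb3, 2.54 for Hoxb8 and 2.42 for Hoxb7, and in each of these 6 genes every RA library was above every untreated library at all 7 times. How often genes outside the cluster were separated in this way was not determined. At 66 h and 78 h RA-treated and untreated libraries are of the same series.

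**Figure D4:**
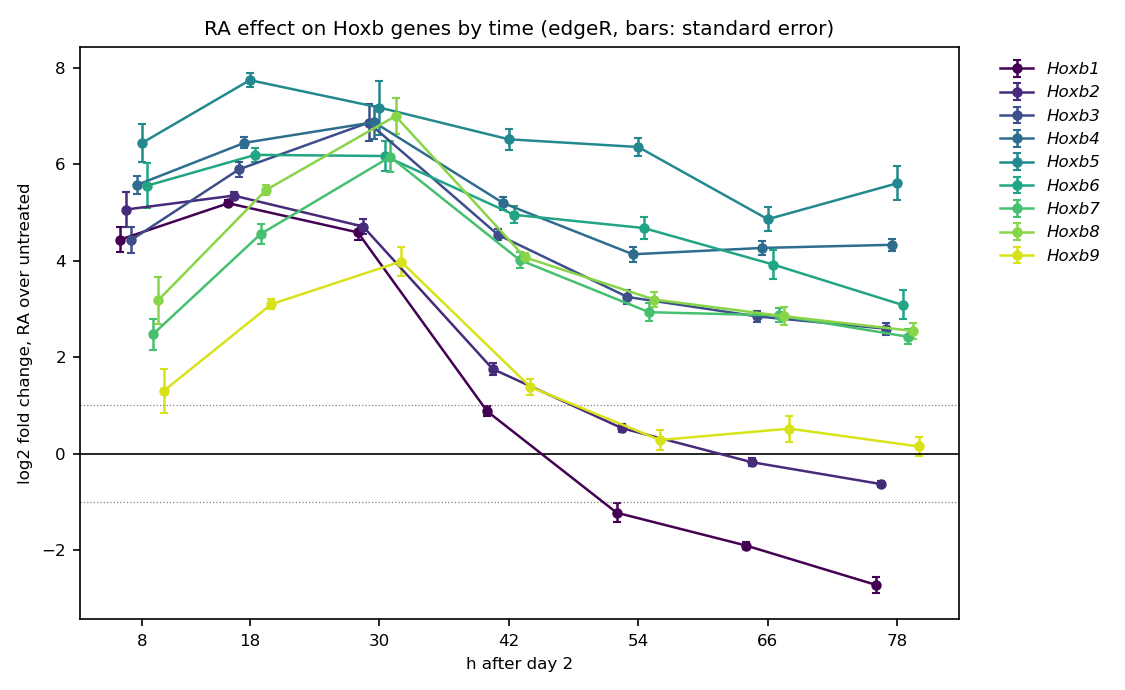
Log2 change of each Hoxb gene, RA-treated over untreated, at each hour after day 2, with bars of 1 standard error and dotted lines at the threshold of 1 in either direction; points of an hour are set slightly apart. Hoxb1 went from 5.19 at 18 h to -2.72 at 78 h, Hoxb2 and Hoxb9 came to within 1 of no change, and Hoxb3 to Hoxb8 stayed at or above 2.42 at all 7 hours.

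The difference between the RA effect at 42 h and that at 18 h was tested over the 12 libraries of the 2 times, all of the earlier series. It was called, at an adjusted p under 0.01, for 7 members and was lower at 42 h in all 7, against 7.92% of all genes called lower and 8.26% called higher. The difference on the log2 scale was -4.29 (SE 0.14, adjusted p = 7.36e-11 by edgeR) for Hoxb1 and -3.57 (SE 0.17) for Hoxb2. It was between -1.70 (SE 0.24) for Hoxb9 and -1.22 (SE 0.30, adjusted p = 0.00612 by edgeR) for Hoxb6 in the other 5, which included Hoxb3, Hoxb4 and Hoxb8. Hoxb5 (-1.20, SE 0.51, adjusted p = 0.0931 by edgeR) and Hoxb7 (-0.51, SE 0.30, adjusted p = 0.26) did not pass. For Hoxb1 both arms moved, with the RA mean falling from 169 to 59.1 CPM and the untreated mean rising from 4.65 to 32 CPM. For Hoxb3 both arms rose, the RA mean from 21.3 to 51.6 CPM and the untreated mean from 0.353 to 2.19 CPM. With each library left out in turn, 5 to 7 members were called. Hoxb6 was lost in 7 of the 12 cases (adjusted p 0.0107 to 0.0475 by edgeR) and Hoxb4 without untreated 18 h replicate 3 (adjusted p = 0.0169 by edgeR). In a fit of all 45 libraries 4 members were called, Hoxb1, Hoxb2, Hoxb3 and Hoxb9.

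Hoxb13 stayed near the limit of detection in all 45 libraries. Its highest level was 0.674 CPM, or 22 counts, in RA 30 h replicate 2, and it was at 0 counts in at least 1 library of several conditions. At 18 h it was at 0.217, 0.247 and 0.217 CPM with RA, or 5 to 6 counts, and at 0.0902, 0.0413 and 0.0267 CPM without, or 1 to 2 counts. It was below the filter of every comparison with untreated organoids, and in the RA arm none of its steps was called, the first of them at a log2 change of 2.21 (SE 1.15, adjusted p = 0.156 by edgeR). At 30 h it was at 0.522, 0.674 and 0.12 CPM with RA and at 0, 0 and 0.0511 CPM without, and at 54 h at 0.462, 0.361 and 0.258 CPM against 0, 0 and 0.0982 CPM. At these 3 times the RA libraries were above the untreated ones, at 4 to 22 counts against 0 to 3, and the difference was not tested. At 8 h, 42 h, 66 h and 78 h the RA-treated and untreated libraries overlapped. The share of all genes with such separation was not determined.

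The other genes annotated inside the cluster included an antisense RNA that, like Hoxb1, changed the sign of its RA effect. Hoxb3os was raised by RA at 18 h, 24.9 ± 1.46 (SD, n = 3) CPM against 1.94 ± 0.389 CPM, a log2 change of 3.68 (SE 0.12). It was lowered at 54 h (-1.01), at 66 h (-1.23) and at 78 h (-1.76, SE 0.11), and at 78 h it stood at 80.9 to 95.7 CPM in untreated and at 21.3 to 28.4 CPM in RA-treated organoids. Its sense partner Hoxb3 was raised 2.59 on the log2 scale at that time, and the counts assigned to the 2 genes thus had RA effects of opposite sign, whereas Hoxb2, the other partner, was at -0.63. How reads from the shared exon bases were divided between them is not known, so none of the 3 is a separate measure of its own strand. In untreated organoids at 78 h the counts assigned to Hoxb3os came to 20.5 CPM per kb and those assigned to Hoxb3 to 2.5, and in RA-treated organoids to 5.98 and 14.9, with the same limit. Hoxb5os was raised at 18 h (1.52, SE 0.38, 0.655 ± 0.0382 CPM against 0.231 ± 0.077 CPM) and stayed at or below 4.38 CPM. The lincRNA Gm53, between Hoxb13 and Hoxb9, was raised at 42 h (1.14) and at 66 h (1.05), and the precursor of Mir10a was at 0.0738 CPM or less and that of Mir196a-1 at 1.05 CPM or less in every library of this poly(A) preparation.

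**Figure D5:**
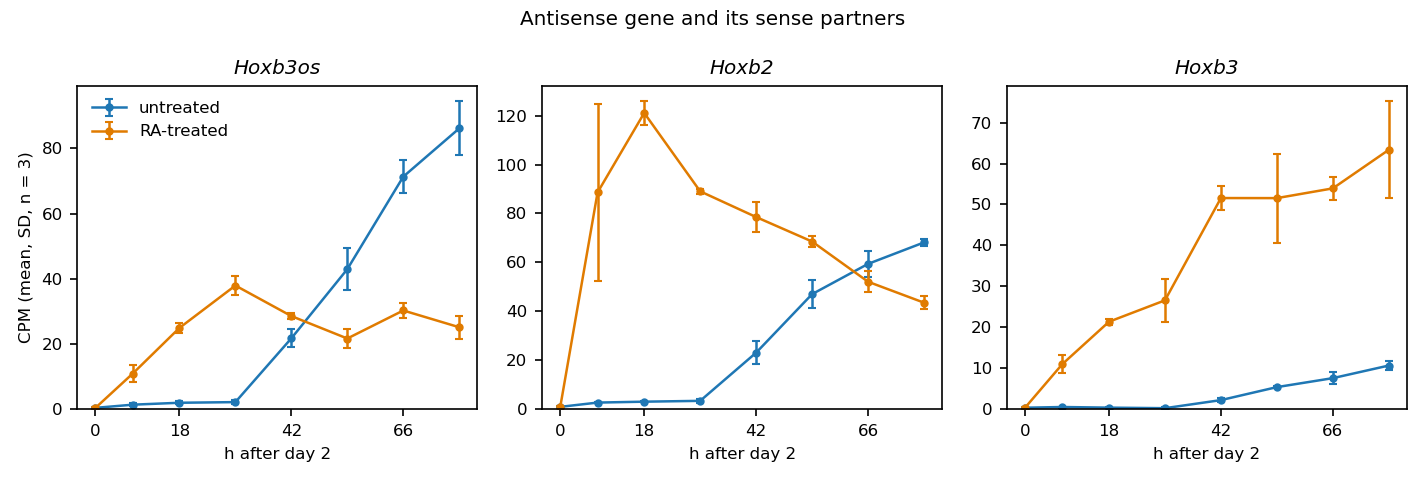
Mean level in CPM with bars of 1 SD (n = 3) of the antisense gene Hoxb3os and the sense genes Hoxb2 and Hoxb3 that it overlaps, against hours after day 2. Untreated Hoxb3os rose to 86.1 CPM at 78 h, above the RA-treated 25.1 CPM, while Hoxb3 was higher with RA at all 7 hours.

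Outside the cluster, 2 of 6 neighbouring protein-coding genes were raised. Calcoco2, an autophagy receptor gene on the Hoxb13 side, was raised at 18 h by 2.04 (SE 0.09) on the log2 scale and at all other times but 30 h, where its RA mean was 19.9 ± 20.3 CPM and the log2 change of 2.47 (adjusted p = 0.0341 by edgeR) did not pass. Skap1, a T cell adaptor gene on the Hoxb1 side, was low throughout and was raised from 18 h on, with 2.84 ± 0.42 CPM against 0.607 ± 0.167 CPM at 18 h, a log2 change of 2.23 (SE 0.25). Ttll6 and Atp5g1 on the Hoxb13 side and Snx11 and Cbx1 on the Hoxb1 side were not called at any time, with log2 changes between -0.53 and 0.95.

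Among the 29 Hox genes of the other 3 clusters, 12 of 15 tested were raised at 18 h and 1, Hoxd13, was lowered (-1.25), with a median log2 change of 3.63 against 0.02 over all genes tested. At 78 h 9 of 16 tested were raised and none lowered, with a median of 1.19. Those lowered at other times were Hoxa9 at 54 h (-2.97) and 66 h (-2.43) and Hoxc9 at 66 h (-1.67). All were low, with Hoxa9 means of 0.142 and 0.229 CPM with RA against 1.12 and 1.23 CPM without. Hoxc9 was at 0.364 against 1.17 CPM. Hoxb9 had log2 changes of 0.28 at 54 h and 0.52 at 66 h, from levels of 9.24 CPM or more in every library.

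Genes that read out RA were tested beside these courses. Of 13 such genes, 7 of 12 tested were raised at 8 h, 10 of 13 at 18 h, 6 of 13 at 54 h and 2 of 13 at 78 h, while none, none, 3 and 3 were lowered, with medians of 2.93, 3.34, 0.69 and 0.38. Cyp26a1, an enzyme that degrades RA, had RA means of 276 CPM at 18 h, 30.5 CPM at 30 h and 5.18 CPM at 78 h, and at 78 h its log2 change was -0.54. Rarb, an RA receptor gene that is itself an RA target, kept 33.5 CPM at 78 h against 2.13 CPM untreated, a log2 change of 3.98. The 3 lowered at 78 h were Cyp26b1 and Cyp26c1, also RA-degrading enzymes (-4.71 and -4.14), and Crabp1, an RA-binding protein gene (-1.40, 449 against 1190 CPM). At 54 h 3 of the 13 were lowered, Cyp26b1, Cyp26c1 and the receptor gene Rarg.

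Genes that act with or upstream of Hox proteins in the hindbrain moved in both directions. Of 9 Hox cofactor genes of the Meis, Pbx and Pknox families, 5 were raised at 18 h (Meis1, Meis2, Meis3, Pbx2 and Pknox2) and none at 78 h, with no member lowered in any of the 7 comparisons with untreated organoids. Meis2 went from a log2 change of 2.63 at 18 h to -0.13 at 78 h. Of 8 upstream and hindbrain genes, 4 of 5 tested were raised at 18 h, among them the caudal genes Cdx1 (5.55) and Cdx2 (1.07). At 78 h 3 of 6 were raised, among them Cdx1 (2.55) and Cdx2 (1.75), and 2 were lowered, Egr2 (-5.93) and Epha4 (-1.01). Cdx2 was not higher with RA throughout. Its mean was 1.79 CPM with RA against 5.13 CPM without at 42 h, and 2.56 against 6.39 CPM at 54 h. At each of these times 3 of the 6 tested genes of the list were lowered. Egr2, which drives the third and the fifth hindbrain segments, reached 36.3 CPM in untreated and 0.579 CPM in RA-treated organoids at 78 h, and Cdx4 and Vgll2 were too low to be tested.

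Markers of other cell types moved with RA as well. In bulk RNA, fewer cells of a type and less RNA per cell cannot be told apart. Of 6 endoderm markers, 4 of 4 tested were raised at 18 h and 3 of 4 from 42 h on (Sox17, Foxa2 and Gata6), while none passed at 30 h, with a summed level of 15.9 to 18.7 CPM in RA-treated and 2.56 to 3.02 CPM in untreated organoids at 18 h and of 20.1 to 22 against 3.09 to 3.51 CPM at 78 h, and with the means of Ttr at or below 0.266 CPM and of Cer1 at or below 0.481 CPM. Of 7 mesoderm markers, 2 of 5 tested were raised at 18 h (Meox1 and Foxf1) and 1 lowered (T), with a sum of 59.9 to 67.2 CPM in RA-treated and 37.1 to 41.2 CPM in untreated organoids, and Msgn1 had a mean of 0.166 CPM or less in every condition. Of 6 neuron markers, 4 were raised and 1 lowered at 78 h, with a sum of 254 to 285 CPM against 135 to 139 CPM, and of 5 neural crest markers 1 was raised and 1 lowered, with sums of 25.8 to 33.3 and 26.2 to 27.5 CPM. Of 6 stem cell and epiblast markers, 2 were lowered and none raised at 18 h, with a sum of 659 to 733 CPM against 1200 to 1280 CPM, and of 6 neural progenitor markers 3 were raised at 18 h and none at 78 h. The part of these cells in the Hoxb values was not tested.

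Within the cluster, likeness of course followed position only in part. Over the 15 condition means of log2(CPM + 1), Pearson's r was 0.989 between Hoxb5 and Hoxb6, 0.985 between Hoxb7 and Hoxb8, 0.973 between Hoxb4 and Hoxb5 and 0.875 between Hoxb1 and Hoxb2. Hoxb3 was more like Hoxb7 (0.969) than its neighbours Hoxb4 (0.912) and Hoxb2 (0.845), and Hoxb9 more like Hoxb2 (0.898) than its neighbour Hoxb8 (0.868). The value was lowest between Hoxb1 and Hoxb7, at 0.469. The points share libraries and the same RA contrast, and the values are given as a description. Outside the Hox clusters, among 15960 genes with a condition mean of at least 1 CPM, the course most like that of Hoxb1 was that of Lrrc9 (r = 0.908), followed by Cpeb1 (0.904) and Greb1l (0.892). Hoxb2 was most like Meis2 (0.981), Hoxb3 like Mecom (0.979), Hoxb4 like Rarb (0.989) and Hoxb5 like Ier5l (0.986). Hoxb6 was most like Ppfia1 (0.976), Hoxb7 like Tmem132e (0.988), Hoxb8 like Pbx2 (0.972) and Hoxb9 like Efnb1 (0.958). Hoxb1 thus had the least close match outside the clusters, and Rarb was among the 3 best for Hoxb4, Hoxb5 and Hoxb6.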

How the data were processed

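RNA of whole organoids was sequenced from poly(A)-selected, stranded, single-end libraries. Per the labels and the study's methods, the authors trimmed reads (Trim Galore 0.5.0), removed abundant sequences (Bowtie 2, version 2.3.4.1 in the submitters' processing notes), aligned to GRCm38 with STAR and counted reads per gene with featureCounts (Subread 1.6.2), and deposited raw counts without normalization or pooling. Treatment of reads that match several places is not given in the sources used here.

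Columns were matched to samples through the library number in each title. Positions came from GENCODE M21, which names 54409 of the 54532 genes and may differ from the annotation counted on. Counts were tested with edgeR 4.0.16 (R 4.3.3) by the quasi-likelihood test after TMM normalization and filterByExpr (minimum count 10, minimum total 15). Each RA effect was fitted on the 6 libraries of its time point, the steps along time on the 24 libraries of an arm with day 2, and the difference between 42 h and 18 h as an interaction over 12 libraries. Calls needed a Benjamini-Hochberg adjusted p under 0.01 over all tested genes and, except for the interaction, a log2 change beyond 1, the thresholds of the study. The standard error is the log2 change divided by the square root of F. CPM levels were scaled by TMM over all 45 libraries. The steps were tested on simulated data. The p-values measure the spread between biological replicates, whose separate cultures are not described further.

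The members and gene lists were chosen with earlier results of these data known. Named genes were all members, genes between and beside them, the lists given with their counts, and the 3 genes of most similar course per member. Some genes of these lists are not reported here by name. The alternatives were DESeq2 1.42.0, RLE factors, library totals, no filter, a fit of all 45 libraries or of the step alone, the replicate number as a block, a looser threshold and each library left out. The counts of lowered members, the untreated step from 18 h to 42 h and the split of 30 h by series were added after the data were seen.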

Additional observations from a re-analysis of the deposited data

Results flagged for a closer look

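Between 18 h and 42 h the RA effect changed, by a test of the difference itself (edgeR interaction term over 12 libraries, called at an adjusted p under 0.01), in 7 Hoxb genes. The RA effect at 42 h minus that at 18 h, on the log2 scale, was -4.29 for Hoxb1, -3.57 for Hoxb2, -1.34 for Hoxb3, -1.23 for Hoxb4, -1.22 for Hoxb6, -1.37 for Hoxb8 and -1.70 for Hoxb9. All 7 were lower at 42 h, and 7.92% of all genes tested were called in that direction. The RA effect was still positive at 42 h in each of the 7, from 0.88 for Hoxb1 to 5.19 for Hoxb4. The call of Hoxb6 was lost in 7 of 12 cases with a library left out, with the replicate block (adjusted p = 0.0108 by edgeR) and in the fit of all 45 libraries (adjusted p = 0.108). That of Hoxb4 was lost without untreated 18 h replicate 3 (adjusted p = 0.0169) and in the fit of all 45 libraries (adjusted p = 0.0116), and that of Hoxb8 in the latter (adjusted p = 0.0198, all by edgeR). With 3 libraries per condition, no single library was tested for standing apart from its group.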

How the results depend on the processing

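Across the alternatives the counts of called members mostly kept within 1.5 times. With each library left out in turn, raised members ranged from 5 to 9 at 8 h, lowered members from 0 to 1 at 54 h, members lowered from 18 h to 30 h from 1 to 2, members raised from 30 h to 42 h from 0 to 1 and members lowered from 42 h to 54 h from 0 to 1. At an adjusted p under 0.05 with no minimum fold, 2 members were lowered at 78 h (21.5% of all genes), 7 rose from 8 h to 18 h (15.5%), 2 were lowered from 18 h to 30 h (14.8%), 1 rose from 30 h to 42 h (8.16%), 5 were lowered from 18 h to 54 h (25.2%) and 1 from 54 h to 66 h (0.9%). From 8 h to 18 h, 1 member rose in the fit of the 6 libraries of the step alone, which has fewer residual degrees of freedom. From 54 h to 66 h, where no member was called lower by edgeR (Hoxb5, -1.07, adjusted p = 0.0137), 1 member, Hoxb5, was called with DESeq2, without the filter, in the fit of all 45 libraries and in the fit of the 6 libraries, and the cause was not tested. In the fit of all 45 libraries 4 members differed between 42 h and 18 h. Hoxb9 at 78 h ranged from -0.19 to 0.31 with each library left out in turn, negative without RA 78 h replicate 1, and Hoxb8 from 18 h to 54 h ranged from -0.019 to 0.054, negative without RA 54 h replicate 1, both from values that were not called. With scaling by library totals the median log2 RA effect over all genes was 0.14 at 18 h and 0.18 at 30 h, against 0.02 and 0.04 with TMM. No called member changed direction.

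Replicate numbers were shared between groups, but deviations of equal numbers correlated above 0.1 in every pair at 66 h only, so they were not taken as pairs. With the replicate block, 6 members were raised at 8 h (Hoxb7, adjusted p = 0.022, and Hoxb8, adjusted p = 0.0247, were lost in edgeR) and 6 differed between 42 h and 18 h, and at 30 h and 78 h every library correlated best with its own number. Untreated levels of Hoxb5 and all levels of Hoxb13, at 0 to 22 counts per library, limit what can be said of them.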
